A study of Mus musculus with 8 samples.

Results

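The hepatic urea cycle and its ammonia supply were read through 9 genes picked by name: Cps1, Nags, Otc, Slc25a15, Ass1, Asl and Arg1 of the cycle, and Gls2 and Glud1, which feed ammonia into it. All 9 were found among the 30266 genes of the deposited table, and all 9 had enough reads to be tested. The samples were livers of 8-week-old male mice of genotype Mdr2-/-, 4 treated with recombinant FGF21 (rFGF21) at 1.0 mg/kg and 4 given PBS as vehicle, with tissue taken after 4 h. Mdr2 is an older name of Abcb4, the phospholipid pump of the bile canaliculus, and its loss leads to cholestatic liver injury. Both groups carry this genotype, and no wild-type liver was analysed here. The labels do not tie each sample to a separate animal; p-values therefore describe the spread among these libraries, which could be technical.

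The urea cycle turns toxic ammonia into urea in hepatocytes, partly in mitochondria and partly in the cytosol, and its enzymes are most abundant in the periportal zone. Carbamoyl phosphate synthetase 1 (Cps1) takes in ammonia and bicarbonate and works only when bound by N-acetylglutamate, which Nags makes. Otc, Ass1, Asl and Arg1 then pass the nitrogen through citrulline, argininosuccinate and arginine to urea, and Slc25a15 carries ornithine and citrulline across the inner mitochondrial membrane. Ammonia that passes the periportal zone is trapped as glutamine by glutamine synthetase (Glul) in pericentral hepatocytes. FGF21 is a hormone made mainly by the liver, where it takes part in the response to fasting.

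The 8 libraries held 62756328 to 73313449 reads. Levels within a gene are given as TMM-normalized CPM (reads scaled by effective library size), and levels between genes as TPM, which divides the reads by exon length. Alb stood at 45600 to 58000 CPM in rFGF21 and 42550 to 63400 CPM in PBS libraries. The labels' extraction text names retina. Of the 7 retina markers found, only Crx and Rcvrn, which mark photoreceptors, had 0 reads in all libraries. Gnat1, the 1 retina marker with enough reads to be tested, had 502 to 793 reads a library. The source of these Gnat1 reads was not tested. Abcb4 was read at 371.6 to 440.7 CPM in rFGF21 and 337.2 to 423.8 CPM in PBS libraries. Which part of the gene is disrupted was not known here, and these reads do not check the genotype. Over all 18315 genes tested, 516 (2.82%) changed, 210 of them (1.15%) higher and 306 (1.67%) lower in rFGF21 livers (adjusted p under 0.05 in edgeR's quasi-likelihood test, by Benjamini-Hochberg). Scaled by library totals alone, the split was 257 higher and 178 lower. Leaving out a single rFGF21 library gave 131 (library 1), 277 (library 2), 283 (library 3) and 171 (library 5) genes, and leaving out PBS library 1 or 5 gave 207 or 251.

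None of the 9 urea cycle and ammonia genes passed that test, where 2.82% of all genes tested did. In bulk liver RNA, fewer cells of a type and less RNA per cell cannot be told apart. Their log2 fold changes (rFGF21 over PBS) ran from -0.50 for Gls2 to 0.13 for Nags, with a median of -0.25 against 0.0034 over all genes tested. The value was below 0 for 8 of the 9 genes, against 49.6% of all genes tested. Otc, Ass1 and Gls2 had an unadjusted p under 0.05, all on the lower side, which is 3 of the 9 against 9.86% of all genes tested (18.8% in either direction). DESeq2 called 1 member, Otc, as lower, against 4.5% of all genes tested. Without PBS library 5 the median of the 9 was -0.14 and 6 of the 9 were below 0.

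**Figure D1:**
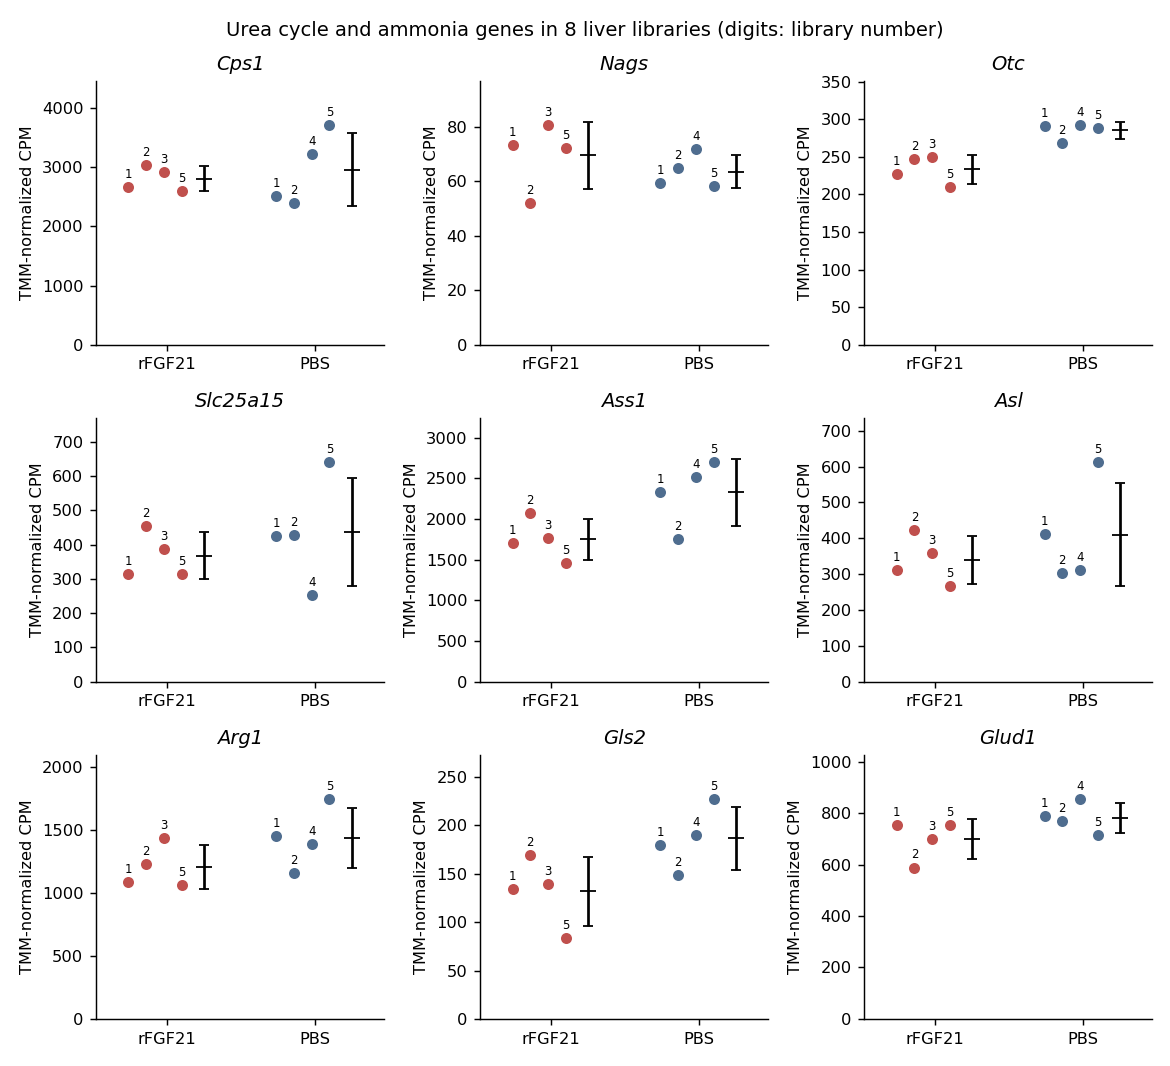
TMM-normalized CPM of the 9 genes, 1 panel a gene, in 4 rFGF21 libraries (red, left) and 4 PBS libraries (blue, right); digits are library numbers, and the black dash and bar give the mean ± SD of the group. Otc is the panel whose groups do not overlap, at 209.5 to 250.2 CPM in rFGF21 and 268.8 to 292.4 CPM in PBS libraries, and PBS library 5 stands highest for Cps1, Slc25a15, Ass1, Asl, Arg1 and Gls2.

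In the mitochondrial entry of the cycle, Cps1 (ENSMUSG00000025991, GRCm38 chromosome 1, 67123026 to 67231259, plus strand) had 2661, 3034, 2926 and 2600 CPM in rFGF21 libraries 1, 2, 3 and 5, and 2507, 2393, 3226 and 3715 CPM in PBS libraries 1, 2, 4 and 5. The rFGF21 libraries lay inside the range of the PBS libraries. The log2 fold change was -0.078 ± 0.15 (SE, n = 4 each; edgeR adjusted p = 0.830), and its 95% interval, -0.40 to 0.25, corresponds to 0.757 to 1.19 times the PBS level. Its sign rests on PBS library 5: without that library the value was 0.059, and by library totals alone it was 0.011.

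Nags (ENSMUSG00000048217, chromosome 11, 102145513 to 102149477, plus strand), the maker of the activator of Cps1, had 73.1, 52.0, 80.6 and 72.1 CPM in rFGF21 libraries 1, 2, 3 and 5, and 59.2, 64.8, 71.6 and 58.3 CPM in PBS libraries 1, 2, 4 and 5. rFGF21 libraries 1, 3 and 5 stood above every PBS library and rFGF21 library 2 stood below all of them. On the CPM scale, Nags was the 1 member with a mean above that of PBS (0.13 ± 0.13, SE, n = 4 each; edgeR adjusted p = 0.654). By TPM, the rFGF21 means of Cps1 (1273 against 1185 TPM in PBS) and Glud1 (420.1 against 416.1 TPM) were above PBS too. With each library left out in turn the log2 fold change lay between 0.050 (without rFGF21 library 3) and 0.25 (without rFGF21 library 2). The opposite strand holds Gm11586, with 2 to 17 reads a library.

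Otc (ENSMUSG00000031173, chromosome X, 10252305 to 10321024, plus strand), which joins carbamoyl phosphate to ornithine, had 226.5, 246.5, 250.2 and 209.5 CPM in rFGF21 libraries 1, 2, 3 and 5, and 291.1, 268.8, 292.4 and 287.9 CPM in PBS libraries 1, 2, 4 and 5. Every rFGF21 library lay below every PBS library, which was so for no other member, against 6.39% of all genes tested. On the TPM scale, where each library is scaled by its sum of reads per exon length, the groups overlapped, at 132.4 to 143.7 TPM in rFGF21 and 141.0 to 159.2 TPM in PBS libraries. No member had every rFGF21 library above every PBS library, against 5.9% of all genes tested. The mean was 233 ± 18.9 CPM in rFGF21 and 285 ± 10.99 CPM in PBS libraries (SD, n = 4 each). The log2 fold change of -0.29 ± 0.092 (SE) had an edgeR adjusted p = 0.125, and it lay between -0.32 and -0.24 with each library left out in turn. DESeq2 gave an adjusted p = 0.0224.

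Slc25a15 (ENSMUSG00000031482, chromosome 8, 22375551 to 22398597, minus strand), the ornithine carrier, had 313.9, 454.9, 388.1 and 315.2 CPM in rFGF21 libraries 1, 2, 3 and 5, and 425.1, 426.6, 253.2 and 640.4 CPM in PBS libraries 1, 2, 4 and 5. Both the lowest and the highest of the 8 values were PBS libraries, and the coefficient of variation was 18.3% in rFGF21 and 36.3% in PBS, the widest of the 9 genes in PBS. The log2 fold change of -0.25 ± 0.24 (SE, n = 4 each; edgeR adjusted p = 0.635) was 0.0082 without PBS library 5. Its relative Slc25a2, another ornithine carrier, had 0 to 9 reads a library and was not tested.

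RefSeq promoter windows (build GRCm38.p6) were available for 5 of the 9 genes: Nags, Otc, Slc25a15 with 2 starts, Ass1 and Glud1. The 250 bases before the start of Otc and of Nags are shown. On the CPM scale these were the member whose groups separated and the member on the higher side. Those of Car5a and Glul are shown as genes beside the cycle that fell. Capitals mark matches on either strand to the motifs searched. These were the cyclic AMP response element TGACGTCA and its half-site TGACG, which it contains. The C/EBP motifs were TTGCGCAA and the looser TTNNGNAA, which includes it. Also searched were the glucocorticoid receptor half-site AGAACA, the HNF4 motif CAAAGTCCA and, for nuclear receptors, the half-site AGGTCA.
Otc, chrX:10252055-10252304, plus strand: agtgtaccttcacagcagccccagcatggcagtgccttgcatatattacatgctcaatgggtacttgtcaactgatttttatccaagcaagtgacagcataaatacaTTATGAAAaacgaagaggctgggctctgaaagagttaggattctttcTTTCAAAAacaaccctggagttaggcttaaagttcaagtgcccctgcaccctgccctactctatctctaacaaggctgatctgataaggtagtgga
Nags, chr11:102145263-102145512, plus strand: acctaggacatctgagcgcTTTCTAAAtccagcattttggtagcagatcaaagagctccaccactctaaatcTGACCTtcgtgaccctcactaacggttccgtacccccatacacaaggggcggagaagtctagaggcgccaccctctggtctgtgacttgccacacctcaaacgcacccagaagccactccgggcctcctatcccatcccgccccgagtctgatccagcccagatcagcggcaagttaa
Car5a, chr8:121944913-121945162, minus strand: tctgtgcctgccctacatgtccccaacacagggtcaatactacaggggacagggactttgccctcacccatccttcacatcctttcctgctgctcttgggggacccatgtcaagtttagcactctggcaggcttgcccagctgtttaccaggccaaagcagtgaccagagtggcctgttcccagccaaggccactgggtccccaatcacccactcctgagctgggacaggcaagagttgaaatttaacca
Glul, chr1:153899679-153899928, plus strand: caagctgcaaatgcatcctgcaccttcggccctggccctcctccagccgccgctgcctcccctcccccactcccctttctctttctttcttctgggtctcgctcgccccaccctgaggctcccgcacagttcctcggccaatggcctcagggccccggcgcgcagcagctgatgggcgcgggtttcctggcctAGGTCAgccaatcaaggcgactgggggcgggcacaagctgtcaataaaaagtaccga

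Among these, the Otc sequence holds TTNNGNAA at -143 and, on the other strand, at -96, counted to the first base of the match from the start. Nags holds TTNNGNAA at -231 and AGGTCA at -178, both on the other strand, and Glul holds AGGTCA at -57. No match is in the Car5a sequence shown. Beyond the bases shown, after the start, Car5a holds TTNNGNAA at 24 and Nags holds TGACG at 32, both on the other strand. In windows that also take in 50 bases after the start, TTNNGNAA is in 40.7% of all 32851 promoters, AGGTCA in 16.3%, TGACG in 20.8% and AGAACA in 19.0%. TGACGTCA is in 1.79%, CAAAGTCCA in 0.475% and TTGCGCAA in 0.183%, and no member window held any of these. The members' promoters differ in composition: Otc has 1 CpG and 43.6% GC in its 250 bases, Nags 11 CpG, Ass1 23 CpG and Glud1 46 CpG with 82.0% GC. The median over all promoters is 6 CpG, with quartiles at 2 and 16.

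In the cytosolic arm of the cycle, Ass1 (ENSMUSG00000076441, chromosome 2, 31470207 to 31520672, plus strand), which joins citrulline to aspartate, had 1711, 2075, 1762 and 1461 CPM in rFGF21 libraries 1, 2, 3 and 5, and 2335, 1759, 2517 and 2701 CPM in PBS libraries 1, 2, 4 and 5. PBS libraries 1, 4 and 5 lay above every rFGF21 library, and PBS library 2 lay among the rFGF21 libraries. Its log2 fold change was -0.41 ± 0.15 (SE, n = 4 each; 95% interval -0.75 to -0.074; edgeR adjusted p = 0.177). Over 15 alternatives it lay between -0.52 and -0.32 without passing.

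Asl (ENSMUSG00000025533, chromosome 5, 130011258 to 130025019, minus strand), which splits argininosuccinate into arginine and fumarate, had 310.9, 424.3, 359.0 and 266.6 CPM in rFGF21 libraries 1, 2, 3 and 5, and 413.2, 303.5, 311.6 and 612.4 CPM in PBS libraries 1, 2, 4 and 5. The groups overlapped but for PBS library 5, which stood highest. Its log2 fold change of -0.27 ± 0.23 (SE, n = 4 each; edgeR adjusted p = 0.572) was -0.0020 without that library.

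Arg1 (ENSMUSG00000019987, chromosome 10, 24915221 to 24927484, minus strand), the arginase that releases urea, had 1088, 1235, 1441 and 1066 CPM in rFGF21 libraries 1, 2, 3 and 5, and 1458, 1159, 1390 and 1747 CPM in PBS libraries 1, 2, 4 and 5. The groups overlapped, and the log2 fold change was -0.25 ± 0.15 (SE, n = 4 each; edgeR adjusted p = 0.384). Without PBS library 5 it was -0.14. Arg2, the mitochondrial arginase, stood low at 0.621 ± 0.31 CPM in rFGF21 and 0.391 ± 0.069 CPM in PBS libraries (SD, n = 4 each), with 20 to 75 reads a library and no call (edgeR adjusted p = 0.431).

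Of the enzymes that release ammonia, Gls2 (ENSMUSG00000044005, chromosome 10, 128194457 to 128209942, plus strand), the liver glutaminase of periportal hepatocytes, had 134.2, 169.6, 139.1 and 83.9 CPM in rFGF21 libraries 1, 2, 3 and 5, and 179.5, 148.9, 190.4 and 226.9 CPM in PBS libraries 1, 2, 4 and 5. PBS libraries 1, 4 and 5 lay above every rFGF21 library, and rFGF21 library 5 was lowest. Its log2 fold change of -0.50 ± 0.20 (SE, n = 4 each; 95% interval -0.94 to -0.066; edgeR adjusted p = 0.202) was the lowest of the 9 and was -0.34 without rFGF21 library 5. The opposite strand holds Spryd4, at 39.9 to 45.1 CPM in rFGF21 and 36.0 to 44.1 CPM in PBS libraries. Without knowing whether counting used the strand, reads of the pair cannot be told apart.

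Glud1 (ENSMUSG00000021794, chromosome 14, 34310727 to 34345265, plus strand), glutamate dehydrogenase, had 752.6, 588.8, 697.9 and 754.9 CPM in rFGF21 libraries 1, 2, 3 and 5, and 788.1, 769.4, 854.4 and 714.9 CPM in PBS libraries 1, 2, 4 and 5. The groups overlapped through PBS library 5, here the lowest of its group, and the log2 fold change was -0.16 ± 0.11 (SE, n = 4 each; edgeR adjusted p = 0.470). With 1 library left out it lay between -0.20 and -0.081.

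**Figure D2:**
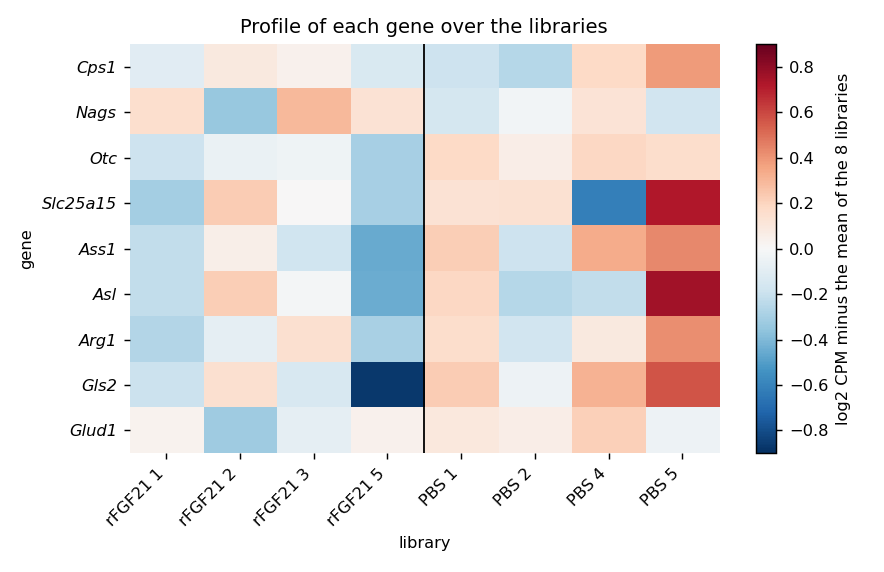
Log2 CPM of each gene minus its mean over the 8 libraries, by colour (red above the mean, blue below), with genes down the page and libraries across it, rFGF21 left of the line and PBS right of it. PBS library 5 is red for Slc25a15 (0.72), Asl (0.75) and Gls2 (0.56), rFGF21 library 5 is blue for Gls2 (-0.87), and Nags and Glud1 have other profiles.

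Within each group, single libraries stood at the end of the range for several members. PBS library 5 was highest of the PBS group for 6 of the 9 genes (Cps1, Slc25a15, Ass1, Asl, Arg1, Gls2) and lowest for Nags and Glud1. rFGF21 library 5 and PBS library 2 were each lowest of their group for the same 6 genes (Cps1, Otc, Ass1, Asl, Arg1, Gls2). rFGF21 library 2 was highest for 5 genes and, as PBS library 5, lowest for Nags and Glud1. The summed reads of the 9 genes took 0.782% ± 0.042 of all reads in rFGF21 and 0.861% ± 0.12 in PBS libraries (SD, n = 4 each), with the highest share, 1.02%, in PBS library 5. Over the 8 libraries, the genes whose centred log2 CPM lay closest to that of Otc were Baat, which conjugates bile acids, at a mean absolute difference of 0.0235, followed by Ctsz, Ivd, Msra and Pitpnc1 at up to 0.0397. The closest among the other members was Arg1 at 0.111. Non-members were drawn from all tested genes with a mean of at least 10 CPM. That pool is larger, so a closer gene in it can follow from pool size alone. For Cps1 the closest genes were Entpd1 at 0.0540, Mavs, Dpy19l3, Zfp715 and St7l, and the closest member was again Arg1 at 0.144.

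**Figure D3:**
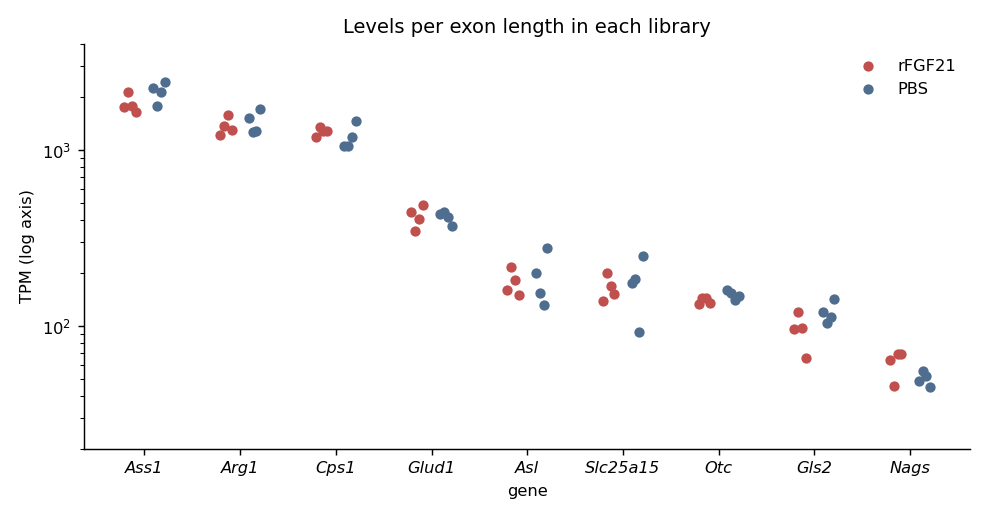
TPM of each gene, on a log axis, in the 4 rFGF21 (red, left) and 4 PBS (blue, right) libraries. Ass1, Arg1 and Cps1 lie between 1047 and 2440 TPM, Glud1 between 345.3 and 488.5 TPM, and the other genes between 44.8 and 276.4 TPM.

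Per exon length the members spanned a wide range of levels. TPM is used here for the order of genes and not for the contrast of groups. Ass1 had 1826 ± 205 TPM in rFGF21 and 2147 ± 280 TPM in PBS libraries, apart from the next gene in both groups (SD, n = 4 each). Arg1 had 1364 ± 155 TPM in rFGF21 and 1443 ± 213 TPM in PBS libraries, and Cps1 1273 ± 65.9 TPM in rFGF21 and 1185 ± 194 TPM in PBS libraries. These neighbours overlapped in both groups. Glud1 followed at 420 ± 60.8 TPM in rFGF21 and 416 ± 32.96 TPM in PBS libraries, apart from the genes above and below it. Asl, Slc25a15 and Otc came next, with means of 138.5 to 176.9 TPM in rFGF21 and 150.6 to 189.9 TPM in PBS libraries, and overlapped with one another in order. Otc stood apart from Gls2 in rFGF21 and overlapped with it in PBS libraries. Gls2 had 94.9 ± 22.5 TPM and Nags 61.9 ± 11.4 TPM in rFGF21 libraries, where they overlapped, against 119.7 ± 16.4 and 50.1 ± 4.61 TPM in PBS libraries, where they did not. The order of the 9 means was the same in both groups. By mean TPM Ass1 ranked 64 and Cps1 100 among 29398 genes with a value above 0, and Nags ranked 1714.

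Around the cycle, 90 other genes from 5 lists were tested, and 7 of them passed, 1 higher and 6 lower, against 2.82% of all genes tested. Their median log2 fold change was -0.17. Fewer passed when rFGF21 library 1 (1 gene), 3 (3 genes) or 5 (2 genes) or PBS library 1 (3 genes), 2 (5 genes) or 5 (5 genes) was left out. More passed without rFGF21 library 2 (9 genes) or PBS library 4 (8 genes).

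Of 14 genes of glutamine and ammonia traffic, 1 rose and 2 fell, Glul and Slc1a2. Over all genes tested 1.15% rose and 1.67% fell. The list's median was -0.15. Glul, which traps ammonia as glutamine, had 151.0, 130.3, 174.8 and 169.7 CPM in rFGF21 libraries 1, 2, 3 and 5, and 254.5, 226.3, 260.9 and 289.2 CPM in PBS libraries 1, 2, 4 and 5. Every rFGF21 library lay below every PBS library, with a log2 fold change of -0.72 ± 0.12 (SE, n = 4 each; edgeR adjusted p = 0.0138; 0.0581 without rFGF21 library 1). Slc1a2, a glutamate transporter that shares the pericentral zone with Glul, had a log2 fold change of -1.14 ± 0.21 (edgeR adjusted p = 0.0205; 0.0515 to 0.0694 without PBS library 1 or rFGF21 library 1, 2 or 5).

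Read counts were also set against each other within each library, in 10 ratios that compared the members with Cps1 (8 ratios), Gls2 with Glul and Arg1 with Arg2. None of them passed after adjustment over the 11 ratios computed. With 70 splits, a ratio could pass only if most of the 11 reached the smallest p possible. That outcome therefore cannot show that the ratios were alike in the groups. Ass1 over Cps1, Gls2 over Cps1 and Arg1 over Arg2 each reached the smallest two-sided exact permutation p that 70 splits allow, 0.0286, or 0.0786 after adjustment. Ass1 had 0.562 to 0.684 reads for each read of Cps1 in rFGF21 libraries and 0.727 to 0.931 in PBS libraries. Gls2 had 0.0323 to 0.0559 reads for each read of Cps1 in rFGF21 libraries and 0.0590 to 0.0716 in PBS libraries. The log2 ratio of Gls2 to Cps1 was -4.46 ± 0.35 in rFGF21 and -3.98 ± 0.12 in PBS libraries (SD, n = 4 each), so every rFGF21 library lay below every PBS library. Gls2 over Glul overlapped between groups, at 0.494 to 1.30 in rFGF21 and 0.658 to 0.785 in PBS libraries.

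**Figure D4:**
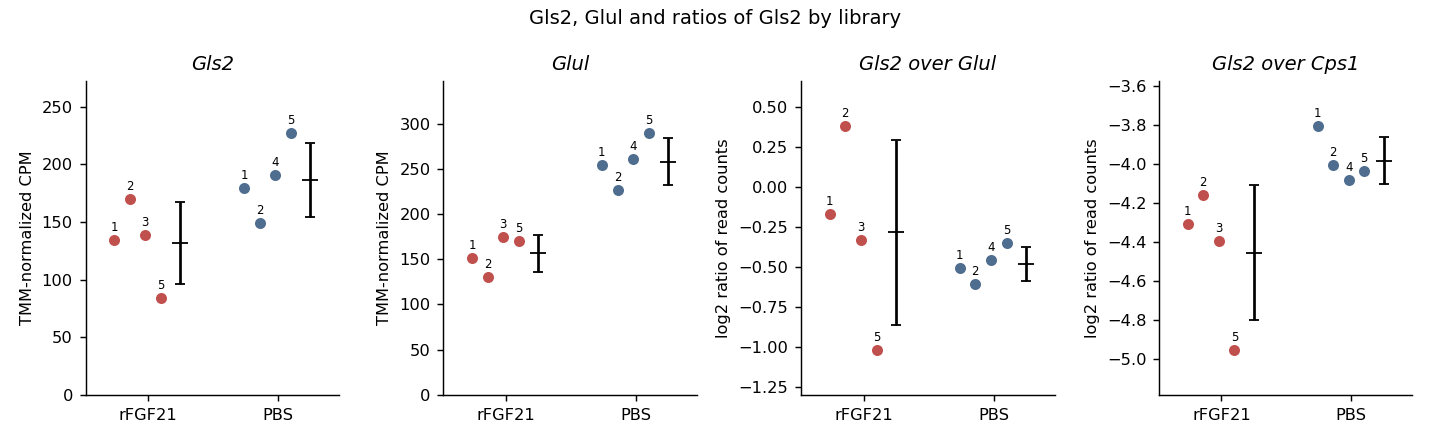
TMM-normalized CPM of Gls2 and Glul, and the log2 ratios of Gls2 reads to Glul reads and to Cps1 reads, in each rFGF21 (red, left) and PBS (blue, right) library; digits are library numbers, and the dash and bar give the mean ± SD of 4 libraries. The ratio to Cps1 lies between -4.95 and -4.16 in rFGF21 libraries and between -4.08 and -3.80 in PBS libraries, and the ratio to Glul overlaps between the groups.

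Of 15 genes that supply bicarbonate, aspartate and their precursors, 3 fell and none rose, against 1.67% of all genes tested that fell. A log2 fold change below 0 was found for 14 of them, against 49.6% of all genes tested (median of the list -0.27). Car5a, the mitochondrial carbonic anhydrase that makes bicarbonate for Cps1, had 35.8, 36.7, 44.3 and 37.5 CPM in rFGF21 libraries 1, 2, 3 and 5, and 63.9, 56.3, 58.8 and 61.5 CPM in PBS libraries 1, 2, 4 and 5. The groups did not overlap, at 38.6 ± 3.90 CPM in rFGF21 and 60.1 ± 3.27 CPM in PBS libraries (SD, n = 4 each). Its log2 fold change of -0.64 ± 0.091 (SE; edgeR adjusted p = 0.00775) was called whichever library was left out (0.0125 to 0.0383).

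Slc25a22, a mitochondrial glutamate carrier, fell by 0.94 ± 0.20 on the log2 scale, with PBS library 4 below the highest rFGF21 library (171.5 ± 31.2 CPM in rFGF21 and 329 ± 94.2 CPM in PBS libraries, SD, n = 4 each; edgeR adjusted p = 0.0393). Slc25a10, the dicarboxylate carrier, fell by 0.42 ± 0.097 (162 ± 11.6 CPM in rFGF21 and 216 ± 17.6 CPM in PBS libraries, SD, n = 4 each; edgeR adjusted p = 0.0492). Slc25a22 was called without rFGF21 library 2 or PBS library 4 and lost without any other library (0.0796 to 0.122). Slc25a10 was called without PBS library 4 and lost without any other library (0.0709 to 0.135). Slc25a13, which exports aspartate to Ass1, had a log2 fold change of -0.32 ± 0.12 without passing (edgeR adjusted p = 0.195).

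**Figure D5:**
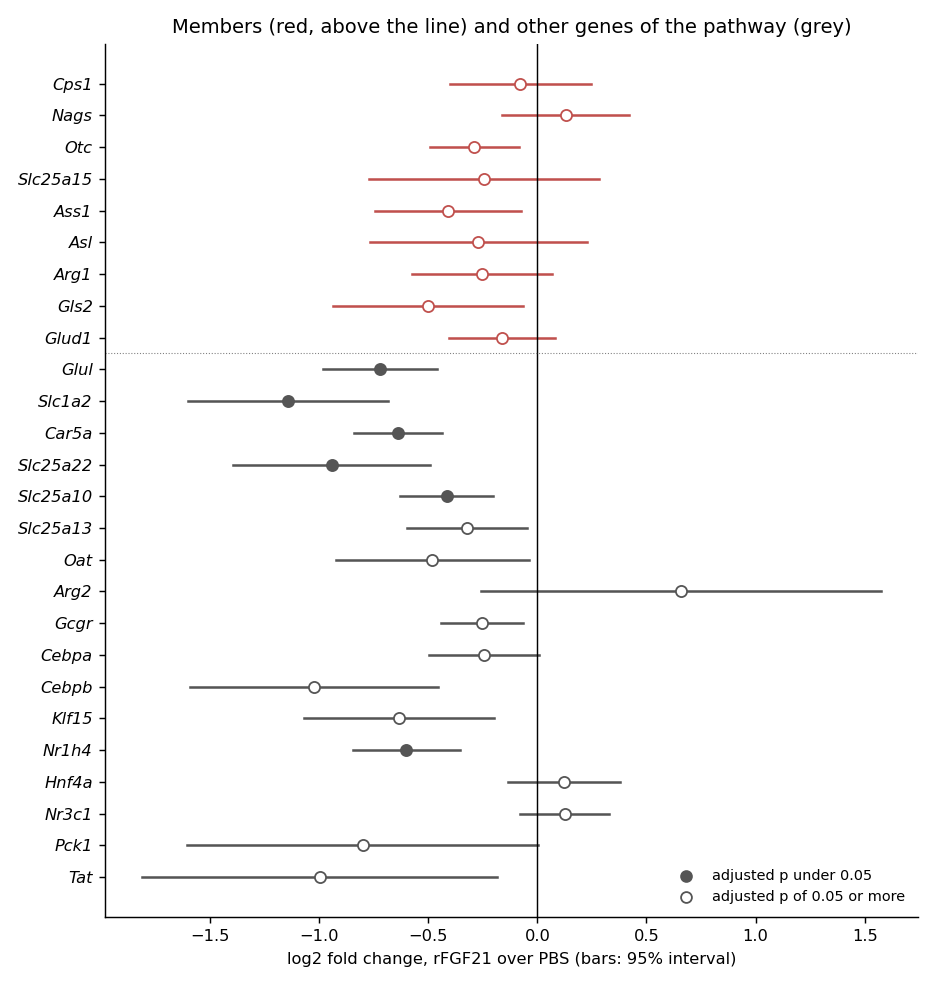
Log2 fold change of rFGF21 over PBS on the x axis for the 9 genes (red) and for other genes of the pathway (grey), with 95% intervals as bars; filled points have an edgeR adjusted p under 0.05. All 9 red points are open, at -0.50 to 0.13. The grey points of Glul, Slc1a2, Car5a, Slc25a22, Slc25a10 and Nr1h4 are filled below 0. Some grey genes were named for the smallest p of their list, so the colours cannot be compared as groups. Of the 90 other pathway genes tested, 7 passed.

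Among 21 genes that use arginine or ornithine or carry urea, none passed by edgeR, and the median was 0.050. At an unadjusted p under 0.05 stood 8 of them, 6 lower. The shares over all genes tested were 18.8% in either direction and 9.86% lower. With DESeq2, 1 rose and 4 fell, against 4.5% of all genes tested that fell. The smallest p-values were those of Gamt, the second enzyme of creatine synthesis (-0.57 ± 0.14, edgeR adjusted p = 0.0605), Prodh, proline dehydrogenase (-0.58 ± 0.15, 0.0669), and Agmat (-0.35 ± 0.11, 0.111). Oat, the pericentral ornithine aminotransferase, had 241 ± 61.7 CPM in rFGF21 and 336 ± 72.7 CPM in PBS libraries (SD, n = 4 each; edgeR adjusted p = 0.225).

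Of 24 known regulators of the cycle 1 fell, against 1.67% of all genes tested, and the median of the list was -0.13. It was Nr1h4, the gene of the bile acid receptor, at -0.60 ± 0.11. Its edgeR adjusted p was 0.0227, or 0.0559 to 0.0653 without PBS library 1 or any 1 rFGF21 library. Cebpb, a transcription factor of the acute and gluconeogenic responses, had 41.2, 62.6, 30.0 and 31.0 CPM in rFGF21 libraries 1, 2, 3 and 5, and 72.7, 63.01, 77.8 and 121 CPM in PBS libraries 1, 2, 4 and 5. The groups did not overlap, although rFGF21 library 2 came close to the lowest PBS library, and the edgeR adjusted p was 0.0628, or 0.0265 without rFGF21 library 2. Klf15, a driver of amino acid breakdown (-0.63 ± 0.20, edgeR adjusted p = 0.116), Cebpa (-0.24 ± 0.11, 0.280) and Gcgr, the glucagon receptor (-0.25 ± 0.086, 0.141), did not pass by edgeR. DESeq2 called 4 regulators lower and 0 higher, against 4.5% of all genes tested called lower. Among the 4 were Cebpb (DESeq2 adjusted p = 0.00132), Klf15 (0.0206) and Gcgr (0.0261). Hnf4a (0.12 ± 0.12, 0.623), the glucocorticoid receptor gene Nr3c1 (0.13 ± 0.092, 0.509) and Sirt5, which activates Cps1 by removing acyl groups (-0.14 ± 0.15, 0.663), did not pass either.

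Of 17 genes known to respond to glucagon or glucocorticoids, none passed by edgeR, and the median was -0.33. At an unadjusted p under 0.05 stood 5 of them, 4 lower. The shares over all genes tested were 18.8% in either direction and 9.86% lower. With DESeq2, 1 rose and 1 fell, against 4.5% of all genes tested that fell. Tat, tyrosine aminotransferase, had 822.6, 1923, 762.1 and 511.4 CPM in rFGF21 libraries 1, 2, 3 and 5, and 1737, 1540, 1751 and 2994 CPM in PBS libraries 1, 2, 4 and 5. rFGF21 library 2 lay among the PBS libraries and the other 3 rFGF21 libraries below them. The edgeR adjusted p was 0.174, or 0.0260 without rFGF21 library 2. Pck1, the gluconeogenic carboxykinase, had the same library apart, with 4006 CPM in rFGF21 library 2 against 955.3 to 2211 CPM in the other rFGF21 libraries and 2945 to 4742 CPM in PBS libraries (edgeR adjusted p = 0.268). Per1 (-0.99 ± 0.25, edgeR adjusted p = 0.0614) and the metallothionein Mt2 (1.24 ± 0.31, 0.0628) had the smallest p-values.

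Zonation markers were read beside the members, which are themselves mostly periportal. Of 16 other periportal markers none passed by edgeR, and 12 were below 0, against 49.6% of all genes tested, with a median of -0.18. At an unadjusted p under 0.05 stood 4 of them, 3 lower, and DESeq2 called 1 lower. Over all genes tested, the unadjusted shares were 18.8% in either direction and 9.86% lower, and DESeq2 called 4.5% lower. Of 19 pericentral markers 3 fell (Glul, Slc1a2 and Cyp1a2), against 1.67% of all genes tested, and the median was -0.42. Glul and Slc1a2 also belong to the list of glutamine and ammonia traffic. A value below 0 was found for 18 pericentral markers, against 49.6% of all genes tested. At an unadjusted p under 0.05, 10 were lower, against 9.86% of all genes tested. DESeq2 called 8 lower, against 4.5% of all genes tested. Cyp1a2, at -1.11 ± 0.25 (edgeR adjusted p = 0.0472), was called without PBS library 2 or 4 and lost without any other library (0.0823 to 0.125).

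Markers of other cells were read in the same bulk RNA. The summed level of 9 hepatocyte markers ran from 85890 to 103800 CPM in rFGF21 and from 85970 to 106200 CPM in PBS libraries, so the groups overlapped. Alb, at 42550 to 63400 CPM over both groups, was a large part of this sum. Of the 9 markers 6 were below 0, with a median of -0.11. Fgb had every rFGF21 library (4922 to 6606 CPM) above every PBS library (3062 to 4343 CPM), against 5.9% of all genes tested. The neutrophil and monocyte markers summed to 61.9 to 96.1 CPM in rFGF21 and 38.6 to 55.9 CPM in PBS libraries, with all 9 tested genes above 0. The 8 cholangiocyte markers were all above 0, and their sums overlapped, at 267 to 416 CPM in rFGF21 and 207 to 301 CPM in PBS libraries. Of all genes tested, 49.6% were below 0. Stellate cell, Kupffer cell, endothelial and lymphocyte sums overlapped between groups as well. The median log2 fold change was 0.72 for the neutrophil and monocyte markers and 0.62 for the cholangiocyte markers. None of the genes of the hepatocyte, Kupffer, cholangiocyte, stellate, endothelial, neutrophil and monocyte, lymphocyte and retina lists passed by edgeR. At an unadjusted p under 0.05 stood 4 of 9 neutrophil and monocyte, 5 of 8 cholangiocyte and 3 of 10 stellate markers, all higher. So did 2 of 9 hepatocyte and 1 of 10 lymphocyte markers, also higher, and 1 of 12 Kupffer markers, lower. Over all 18315 genes tested the share was 18.8%, with 1634 genes higher and 1806 lower. DESeq2 called 2, 3, 1, 1, 1 and 0 markers of these lists, in the same order, against 703 of the 18315 genes called higher. Among 5 gut and kidney markers, Cdh17 rose and Lgals4 fell, against 1.15% of all genes tested that rose and 1.67% that fell. The part of these cells in the levels of the urea cycle genes was not tested.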

How the data were processed

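RNA of 8 liver samples was sequenced, and the authors deposited a table of raw read counts per gene, per the file headers. Bowtie 0.12.2 and build mm8 are listed in the submitters' processing notes, but 27322 of 30177 gene identifiers (90.5%) have the coordinates of GENCODE mouse release 21 (GRCm38); coordinates are given as the table prints them. No counting tool is named. Column names give the group but not the sample, so 4 count columns a group were used, those that also have an FPKM column, and libraries keep their column numbers. The other 10 columns of values per library (2 of counts, 8 of FPKM) were not used, although FPKM had been planned for levels and as an alternative. TPM was computed from the counts and GENCODE exon lengths instead, a choice made after seeing the data.

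Counts were fitted over all genes with edgeR 4.0.16 (R 4.3.3; filterByExpr, TMM, glmQLFit and glmQLFTest, two-sided, no covariates; Benjamini-Hochberg over 18315 genes). SE follows from the F statistic, and intervals are 95%. The step was tested on simulated data. Alternatives used DESeq2 1.42.0, other scalings, no filter, each library left out, and a block by column number. Motifs and composition came from RefSeq promoters. Named beside all members were, per list, up to 3 genes with the smallest p and a fixed set of regulators and partners. The members, the 17 gene lists and the tests were chosen with earlier results of these data known. Of these lists, 1 gene and a ratio that uses it entered the fits, counts and adjustment but are not reported here. No batch is named in the labels.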

Additional observations from a re-analysis of the deposited data

Results flagged for a closer look

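Genes and ratios named were checked for 1 library far from the other 3 of the group, a check that flags about 1 in 20 groups by chance. The check found 7 among 96 groups. It did not cover every gene named. The hepatocyte marker Fgb is not among the 7, though rFGF21 library 2 had 6606 CPM and the others 4922 to 5091 CPM. In rFGF21 livers, library 5 stood apart for Slc25a10 (144 CPM, the others 167 to 169 CPM). In PBS livers, library 5 stood apart for Tat (2994 CPM, the others 1540 to 1751 CPM) and for Ctsc, a periportal marker (90.9 CPM, the others 69.8 to 72.3 CPM), and library 4 for Uroc1, an enzyme of histidine breakdown (461 CPM, the others 346 to 351 CPM). Among the log2 ratios to Cps1, Arg1 stood apart in rFGF21 library 3 (-1.02, the others -1.30 to -1.29), Nags in rFGF21 library 2 (-5.87, the others -5.19 to -5.17) and Slc25a15 in PBS library 4 (-3.67, the others -2.56 to -2.49).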

How the results depend on the processing

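None of the 9 urea cycle and ammonia genes passed in 14 of 15 alternatives, and DESeq2 called 1, Otc. All genes changed numbered 516, against 1527 with DESeq2 and 198 without a filter on low counts; with each library left out they numbered 131 to 486. The 7 other pathway genes became 21 with DESeq2, 3 without a filter, and 1 to 9 with each library left out. The log2 fold change of Cps1 changed sign by library totals (0.011), and with each library left out it lay between -0.17 and 0.059, positive without PBS library 5. That of Slc25a15 lay between -0.43 and 0.0082, positive without PBS library 5; none of these passed. For single genes and ratios, 554 other values kept their direction and their side of the threshold or stayed within the spread, 46 lost a call, and 17 gained one. The causes of these shifts were not tested. The alternatives on FPKM values were not run, since those columns were not used.

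Deviations of same-numbered columns from their group means had correlations of 0.138, -0.132 and -0.214 for numbers 1, 2 and 5. With so few pairs, and no columns of unlike number set beside them, these values cannot decide whether the numbers pair the samples. With a replicate block on these 6 libraries, 12 genes were called, against 281 without it, a comparison added after seeing the data; 0 members and 0 other pathway genes passed with the block.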
